A study of Mus musculus with 9 samples.

Results

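The subunits of the mitochondrial respiratory chain were examined in mouse liver tumours and normal mouse livers. The members were all genes whose symbol in the platform annotation began with Nduf, Uqcr or Cox4 to Cox8, or was Sdha, Sdhb, Sdhc or Sdhd. That rule found 73 of the 18193 genes measured: 36 structural subunits and 8 assembly factors of complex I, 4 genes of complex II, 8 of complex III and 17 of complex IV. All 73 entered the test, since no filter on low values was applied. The 5 tumours were hepatocellular carcinomas from triple knockout (TKO) mice, genotype Rb deleted on both alleles, p130 deleted on both alleles and p107+/-. Those mice had been given Ad-Cre, an adenovirus that carries Cre recombinase, into the spleen 4 months before dissection. The 4 livers were wild type, adult and tumour-free, so the effects of genotype, of virus and of being a tumour cannot be told apart. The age of the tumour mice, the sex of either group and the cells reached by the virus are not stated in any source used here. Nothing in the labels tells whether the replicates were different animals; the p-values therefore reflect only sample-to-sample spread, which may be technical.

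The respiratory chain lies in the inner mitochondrial membrane. Complex I takes electrons from NADH and complex II takes them from succinate, a step of the citrate cycle, and both pass them to ubiquinone. Complex III moves them on to cytochrome c, and complex IV, cytochrome c oxidase, hands them to oxygen; complexes I, III and IV pump protons, which drive ATP synthase. Liver is rich in mitochondria, and nuclear genes encode all members described here.

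Values are log2 levels per probe set, a group of short probes read as a single value; 1 unit is a doubling, and differences are tumour minus liver. Background was taken from TrpnX, a bacterial control probe set without a mouse target, at 3.69 to 4.36. Of the targeted genes, Rbl2 (p130) read 6.77 to 8.43 in tumours (median 7.98) and 9.44 to 10.02 in livers (median 9.87), Rb1 8.76 to 9.38 and 7.69 to 8.33, and Rbl1 (p107) 4.63 to 4.82 and 4.23 to 5.83. No source used here names the deleted exons, and a probe set outside them checks nothing about the genotype. Of 8 listed hepatocyte markers 7 were measured, none at background. Their mean was 13.7 to 14.5 in tumours and 14.6 in every liver, and none was called lower or higher in the test below. In whole tissue, fewer cells of a type and less RNA per cell cannot be told apart. RNA length was read from the 3' over 5' ratio of the Actb controls on the log2 scale. Tumours had 0.605 ± 0.079 (SD, n = 5) and livers had 0.965 ± 0.044 (SD, n = 4); by an exact two-sided permutation test p = 0.00794, which is the smallest that 126 splits allow, and 0.0159 adjusted over 2 controls. For Gapdh it was -0.212 and -0.278 (exact permutation p = 0.0635). The part of RNA length in the differences below was not tested.

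Of the respiratory chain genes that passed the test, nearly all were modestly lower in the tumours. With limma and an adjusted p under 0.05, 21 of 73 fell and 1, Cox7a1, rose; over all genes 17.4% were called lower and 16.1% higher (33.5% either way), against 28.8% and 1.37% of the members. Differences were negative for 52 members (71.2%) and for 59.9% of all genes. The sizes were small: the 21 decreases ran from 1.21-fold (Cox8c) to 1.91-fold (Ndufaf4), and 1 member reached 2-fold in either direction, against 12.1% of all genes. The median difference of the members was -0.18, and that of all genes -0.08. In 19 members all 5 tumours lay below all 4 livers (26.0%, with 15.9% of all genes), and in 2, Cox7a1 and Ndufa4l2, all tumours lay above (14.0% of all genes). Members are brightly read genes, so the same shares were taken over the 55 members and 2792 genes with a mean level of at least 10, a split chosen after the values were seen: 30.9% of those members were lower and none higher (0 of 55), against 23.2% and 23.2% of the genes. The counts depended on scaling. Centring each array on its 75th percentile gave 38 members lower and 1 higher, and shifted the median of all genes to -0.23, with 6972 genes lower and 2406 higher instead of 3165 and 2926. The median of the members minus that of all genes was -0.0994, a gap that centring cannot change; without liver 4 it was -0.0542, and over the other removals of 1 array it ran from -0.132 to -0.0729. Centring on 11 housekeeping genes, 7 of which rose in the tumours, gave 70 members lower and 0 higher and a median of all genes of -1.49.

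**Figure D1:**
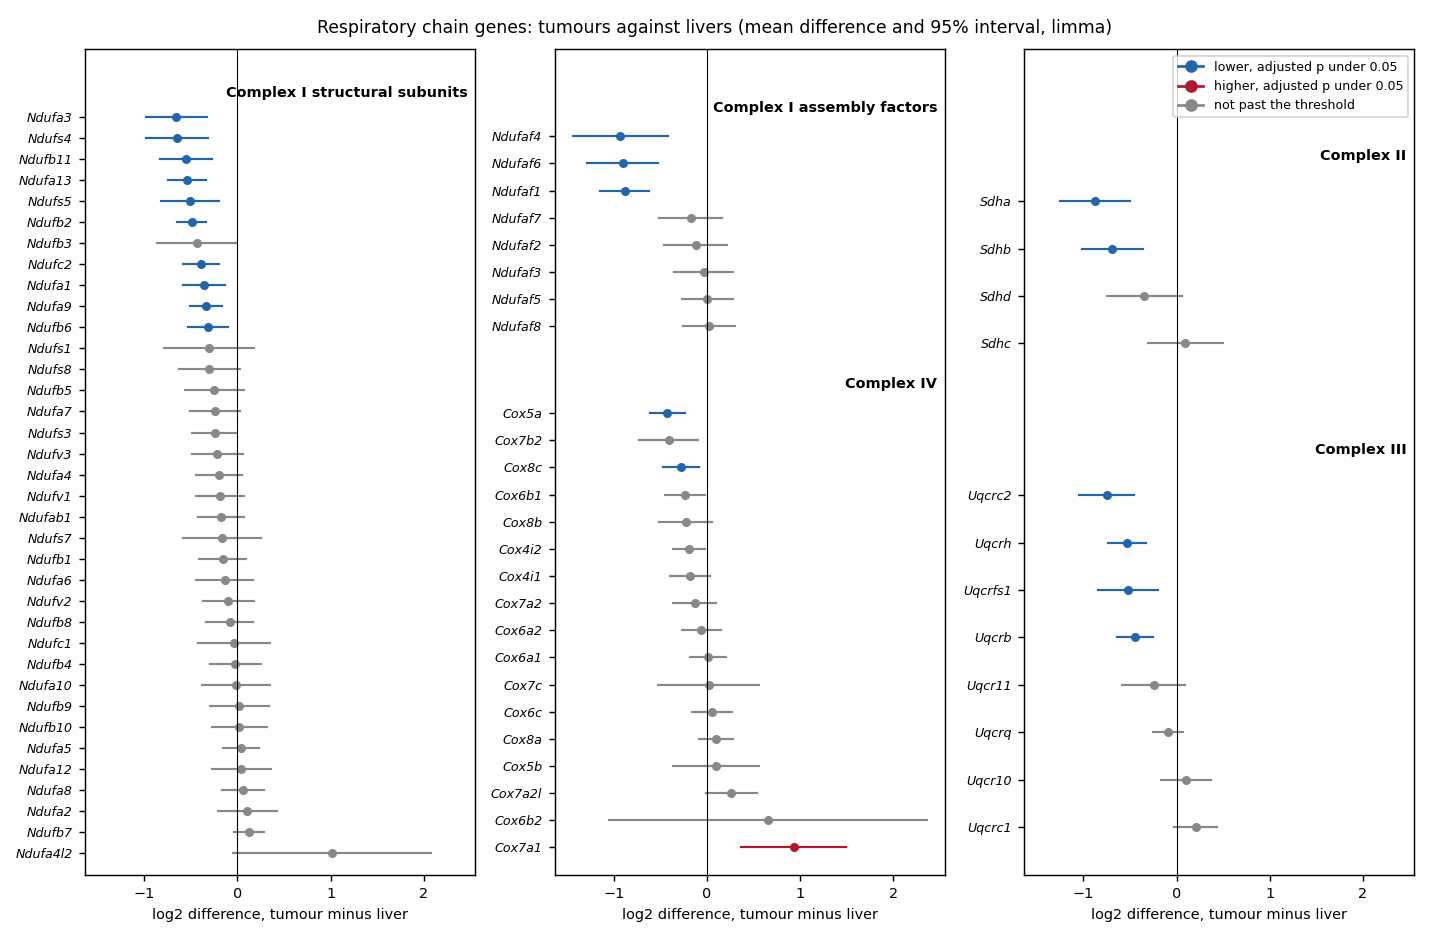
Mean log2 difference, tumours minus livers, for each of the 73 members (points) with its 95% interval (lines) from limma, grouped by complex. The 21 members in blue passed an adjusted p of 0.05 as lower, Cox7a1 in red as higher, and the grey ones did not pass.

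Complex I, NADH dehydrogenase, is an L-shaped assembly with a peripheral arm in the matrix and a membrane arm that pumps protons. By gene name it had 36 structural subunits, Ndufa4 and Ndufa4l2 included. Of these 10 fell (27.8%, against 17.4% of all genes) and none rose (16.1% of all genes). The median difference was -0.19, with 28 negative values. By textbook position, assigned after the values were seen, 8 of 19 membrane-arm subunits fell (median -0.25) and 2 of 14 peripheral-arm subunits (median -0.20); the difference between the arms was not tested. In the membrane arm, Ndufb2 had the smallest adjusted p. It read 11.24, 11.33, 11.36, 11.44 and 11.35 in tumours 1 to 5 and 11.78, 11.81, 11.81 and 11.92 in livers 1 to 4, a difference of -0.49 (SE 0.07, adjusted p = 0.000858). Every tumour lay below every liver, and both groups were tight. Ndufa13, also known as GRIM-19, read 12.61, 12.69, 12.79, 12.46 and 12.79 in tumours and 13.09, 13.19, 13.29 and 13.25 in the livers, a difference of -0.54 (SE 0.09, adjusted p = 0.00209). Its probe set ends in s_at and can cross-hybridise with similar genes, as can that of Ndufc2. Ndufa3 had the largest decrease of the structural subunits, from 13.23, 13.38, 13.44 and 13.51 in livers to 12.68, 13.20, 12.68, 12.41 and 12.70 in tumours (-0.66, SE 0.15, adjusted p = 0.00845). Tumour 2 came close to liver 1 and tumour 4 was the lowest.

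Ndufc2 fell by 0.39 (SE 0.09, adjusted p = 0.00793), with tumours at 12.44 to 12.75 around a median of 12.66 and livers at 12.92 to 13.14. Another bright probe set of Ndufc2, which does not end in s_at, was called lower (-0.48). The X-linked member Ndufb11 read 12.59, 13.20, 12.84, 12.64 and 12.67 in tumours and 13.34, 13.30, 13.37 and 13.35 in the livers, a decrease of 0.55 (SE 0.12). The livers lay close together, whereas tumour 2 stood apart from the other tumours. Of the other bright probe sets of Ndufb11, 1 was called lower (-0.50) and another differed by -0.33 without passing. The other X-linked member, Ndufa1, was 12.51, 12.68, 12.68, 12.55 and 12.26 against 12.86, 12.88, 12.85 and 12.99 (-0.36, SE 0.10, adjusted p = 0.0209). With each array's Xist level as a covariate, both were still called lower. Ndufs5 fell by 0.51 (SE 0.14) and Ndufb6 by 0.32 (SE 0.10), each with less margin. The call of Ndufa1 was lost without liver 4 (-0.33) and that of Ndufs5 without liver 1 (-0.45) or liver 4 (-0.43). Ndufb6 lost its call without tumour 3 (-0.27), tumour 4 (-0.30), tumour 5 (-0.32), liver 1 (-0.33), liver 2 (-0.33) or liver 4 (-0.28). Another bright probe set of Ndufb6 was called lower with all arrays (-0.53).

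In the peripheral arm, the accessory subunits Ndufa9 and Ndufs4 fell, and the other 12 subunits did not pass. Of these 12, Ndufs1, Ndufs7, Ndufs8, Ndufv1 and Ndufv2 carry flavin or iron-sulphur clusters, with differences of -0.31, -0.17, -0.30, -0.19 and -0.10, and Ndufs3, a core subunit without a cofactor, differed by -0.24. Another bright probe set of Ndufs8 was called lower (-0.49, adjusted p = 0.0426). The accessory subunits among them were Ndufa2, Ndufa5, Ndufa6, Ndufa7, Ndufa12 and Ndufv3, which lay between -0.24 and 0.11. For Ndufa7, another bright probe set was called lower (-0.39, adjusted p = 0.0271), as was a dimmer one (-0.67). Its remaining probe sets gave -0.28 and -0.26 without passing. Ndufs4, whose loss in mice gives a Leigh-like encephalopathy, read 10.25, 10.90, 10.29, 10.71 and 10.66 in tumours and 11.06, 11.21, 11.17 and 11.42 in livers (-0.65, SE 0.15, adjusted p = 0.00906). Tumours 1 and 3 were lowest, and no tumour reached a liver. Of its dimmer probe sets, 1 was called lower (-0.94) and another gave 0.52 without passing, and the mean over its probe sets was -0.28 without passing, so the size rests on the probe set. Ndufa9, near the junction of the arms, was 12.07, 12.19, 11.89, 12.07 and 12.10 against 12.42, 12.35, 12.40 and 12.45 (-0.34, SE 0.08, adjusted p = 0.00842). Among subunits with positive differences, Ndufb7 of the membrane arm differed by 0.12 (95% interval -0.04 to 0.29) and Ndufa2 of the peripheral arm by 0.11 (-0.21 to 0.42). Both were near 0 and below it after 75th-percentile centring (-0.02 and -0.04).

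Ndufa4 and Ndufa4l2 carry complex I names, but the Ndufa4 protein is now counted with complex IV. In the counts here both stayed with the structural subunits of complex I. Ndufa4 was 12.60, 13.01, 12.50, 12.72 and 12.67 in tumours and 12.84, 12.99, 12.78 and 12.99 in the livers, a difference of -0.20 (95% interval -0.45 to 0.05) that passed without tumour 2 (-0.28). Ndufa4l2, a related gene known as a target of the hypoxia-inducible factor, read 7.77, 7.56, 10.12, 7.95 and 7.89 in tumours and 7.39, 7.17, 7.29 and 7.12 in livers. All tumours lay above all livers, and tumour 3 was more than 2 units above the next. The difference of 1.02 did not pass (SE 0.47, adjusted p = 0.124). Without tumour 3 it was 0.55 and passed (adjusted p = 0.00789), and after housekeeping centring it turned to -0.40.

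Assembly factors of complex I are not part of the finished enzyme. Of the 8 that carry Ndufaf names 3 fell (37.5%, against 17.4% of all genes) and none rose. These 3 were the largest decreases of any member. Ndufaf1, which helps to build the membrane arm, was 9.60, 9.82, 9.31, 9.69 and 9.51 across tumours and 10.35, 10.59, 10.59 and 10.35 across livers (-0.88, SE 0.12, adjusted p = 0.000557). Ndufaf6 was 9.52, 9.11, 8.78, 9.57 and 9.23 against 10.31, 9.93, 10.26 and 10.07 (-0.90, SE 0.17, adjusted p = 0.00352). Ndufaf4, which acts early in assembly with Ndufaf3, was 9.69, 9.60, 9.03, 9.0 and 9.29 against 10.05, 10.01, 10.04 and 10.91 (-0.93, SE 0.23, adjusted p = 0.0129). Tumours and livers did not overlap for any of the 3, and liver 4 stood well above the other livers for Ndufaf4. The remaining factors were closer to 0: Ndufaf7, which methylates a core subunit, differed by -0.18 (95% interval -0.51 to 0.16) and Ndufaf2, a late-acting factor, by -0.12 (-0.46 to 0.22). Ndufaf5 differed by 0.0035 (-0.27 to 0.28) and Ndufaf8, its partner, by 0.02 (-0.26 to 0.30).

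Complex II, succinate dehydrogenase, has 4 subunits, all encoded in the nucleus. The catalytic pair fell and the membrane anchors did not pass (2 of 4 lower, with 17.4% of all genes lower). Sdha, the flavoprotein that oxidises succinate, read 11.78, 12.51, 11.63, 11.84 and 12.04 in tumours and 12.90, 12.72, 12.80 and 12.92 in the livers, a difference of -0.88 (SE 0.17, adjusted p = 0.00379), or 1.83-fold lower. A second bright probe set of Sdha fell by 1.19. Sdhb, the iron-sulphur subunit, was 12.56, 13.01, 12.29, 12.92 and 12.82 against 13.42, 13.31, 13.38 and 13.53 (-0.69, SE 0.15, adjusted p = 0.0065). For both, all tumours lay below all livers, tumour 2 came closest and tumour 3 was lowest. Sdhd, an anchor, was 11.62, 12.37, 11.47, 12.17 and 11.99 against 12.29, 12.21, 12.19 and 12.40 (-0.34, 95% interval -0.75 to 0.06, adjusted p = 0.164). It overlapped with the livers through tumour 2, and another probe set of it, below a level of 10, fell by 0.62. Sdhc, the other anchor, was 12.33, 12.40, 11.81, 12.89 and 12.28 against 12.25, 12.17, 12.28 and 12.29, a difference of 0.09 (95% interval -0.31 to 0.50). The livers were tight and the tumours spread on both sides of them; the sign turned without tumour 4 (-0.04) and with 75th-percentile centring (-0.05).

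Promoters of 3 members are shown, those with the smallest adjusted p among the decreases of complexes II and III and that of Cox7a1, the member that rose. Each is a window of 300 bases, 5′ to 3′, that lies mostly before the start of the gene in RefSeq (GRCm38.p6). Capitals mark matches to letters bound by NRF1 (GCGCA and GCGC parted by any 1 base) or GABPA (CCGGAAG, or its complement CTTCCGG), factors known to drive many respiratory chain genes. Sdha lies at chr13:74350191-74350490 on the minus strand, Uqcrh at chr4:116075021-116075320 on the minus strand and Cox7a1 at chr7:30183921-30184220 on the plus strand.
Sdha: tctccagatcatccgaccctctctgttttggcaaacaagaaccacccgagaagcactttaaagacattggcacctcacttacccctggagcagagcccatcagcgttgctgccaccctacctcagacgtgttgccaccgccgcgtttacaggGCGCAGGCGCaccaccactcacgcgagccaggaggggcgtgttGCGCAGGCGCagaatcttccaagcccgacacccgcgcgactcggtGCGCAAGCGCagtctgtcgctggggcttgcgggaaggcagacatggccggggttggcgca
Uqcrh: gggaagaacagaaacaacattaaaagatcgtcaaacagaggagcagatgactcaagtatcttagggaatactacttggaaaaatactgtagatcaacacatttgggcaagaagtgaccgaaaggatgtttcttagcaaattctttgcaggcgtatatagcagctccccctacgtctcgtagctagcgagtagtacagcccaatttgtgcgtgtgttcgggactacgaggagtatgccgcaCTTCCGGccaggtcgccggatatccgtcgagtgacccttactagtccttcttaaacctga
Cox7a1: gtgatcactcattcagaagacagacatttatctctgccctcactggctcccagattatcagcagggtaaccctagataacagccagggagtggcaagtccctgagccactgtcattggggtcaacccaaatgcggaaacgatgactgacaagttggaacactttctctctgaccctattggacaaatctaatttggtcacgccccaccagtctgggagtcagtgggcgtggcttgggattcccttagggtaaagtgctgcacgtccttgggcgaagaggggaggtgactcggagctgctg
The Sdha window held 3 NRF1 matches and the Uqcrh window 1 GABPA match; the letters of NRF1, GABPA, YY1 (AAGATGGC) and the TATA box (TATAAA) were searched on both strands, and Cox7a1 held none of them. Of 59 members with a promoter in that table (61 windows), 11 held NRF1 letters, 13 GABPA letters and 7 YY1 letters. By window this was 19.7%, 21.3% and 11.5%, against 4.6%, 8.86% and 2.75% of all 32851 windows, and TATA letters stood in 11.5% against 13.6%. Member windows were richer in G and C (median 59.0% against 52.7%). Of 17 members called lower with a promoter, 3 held NRF1, 4 GABPA and 3 YY1 letters. A match is not a binding site, and some matches of different motifs can overlap.

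Complex III, the cytochrome bc1 complex, had 4 of 8 genes lower (50.0%, against 17.4% of all genes) and none higher, with a median of -0.35. Uqcrc2, a core protein, read 12.15, 12.61, 12.09, 11.95 and 12.20 in tumours and 12.99, 12.81, 13.07 and 12.93 in the livers, a difference of -0.75 (SE 0.13, adjusted p = 0.00256), or 1.68-fold lower. Uqcrh, the hinge protein at the cytochrome c side, was 12.32, 12.63, 12.25, 12.29 and 12.40 against 12.88, 12.94, 12.96 and 12.84 (-0.53, SE 0.09, adjusted p = 0.00239), from an s_at probe set. All tumours were below all livers for both, and tumour 2 was again the nearest to the livers. Another bright probe set of Uqcrh, which does not end in s_at, was called lower (-0.48). Uqcrb, which contacts ubiquinone, was 14.01, 14.36, 14.04, 14.18 and 14.11 against 14.61, 14.55, 14.61 and 14.56 (-0.45, SE 0.08, adjusted p = 0.00387), and its other bright probe set fell by 0.94. Uqcrfs1, the Rieske iron-sulphur protein, was 12.24, 12.85, 12.23, 12.11 and 12.40 against 12.87, 12.80, 12.91 and 12.96 (-0.52, SE 0.14, adjusted p = 0.0216). Tumour 2 reached the livers there, and the call was lost without liver 1 (-0.53), liver 3 (-0.51) or liver 4 (-0.49).

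The other core protein of complex III, Uqcrc1, was not called. It was 12.44, 12.49, 12.31, 12.70 and 12.38 in tumours and 12.35, 12.11, 12.16 and 12.42 in the livers, a difference of 0.21 (95% interval -0.03 to 0.44, adjusted p = 0.152). The groups overlapped. Of the small subunits, Uqcrq differed by -0.09 (95% interval -0.25 to 0.07). Uqcr11 differed by -0.24 (95% interval -0.58 to 0.09), and passed without tumour 4 (-0.37), the highest tumour at 12.88 beside 12.12 to 12.34. Uqcr10 differed by 0.10 with the probe set used (95% interval -0.17 to 0.37), while its other probe sets passed as lower at -1.18 and -0.80, so its direction rests on the probe set.

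**Figure D2:**
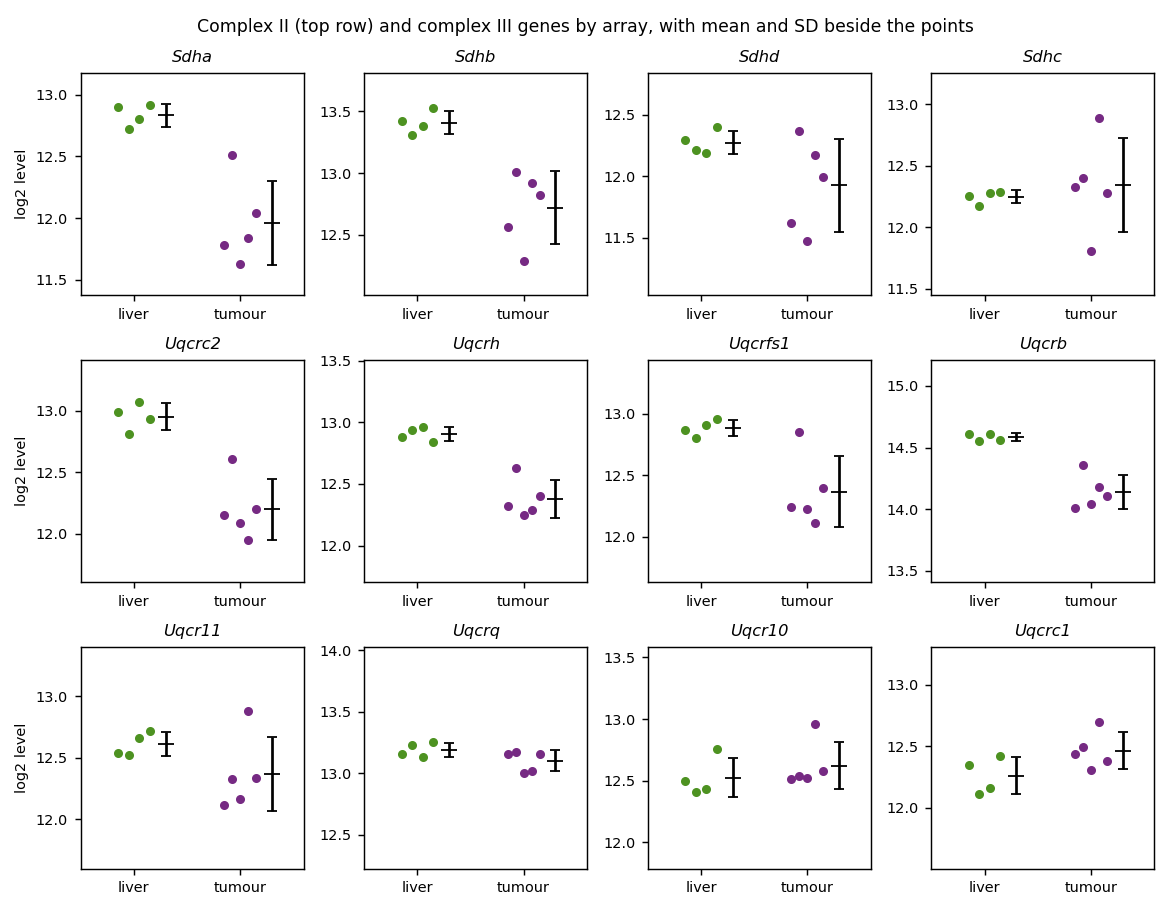
Log2 level of the 4 complex II genes (top row) and 8 complex III genes in each of 4 livers (green) and 5 tumours (purple), with mean and SD beside the points; every panel spans the same number of log2 units. Tumours lie below all livers for Sdha, Sdhb, Uqcrc2, Uqcrh and Uqcrb, and overlap them in the other panels.

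Complex IV, cytochrome c oxidase, had the fewest calls in proportion: 2 of 17 genes fell (11.8%) and 1 rose (5.88%). Over all genes 17.4% were called lower and 16.1% higher. The median of complex IV was -0.06, near that of all genes. Cox5a, a nuclear subunit that contacts the catalytic core, was 13.11, 13.35, 13.09, 13.20 and 13.04 across tumours and 13.61, 13.67, 13.56 and 13.48 across livers (-0.43, SE 0.08, adjusted p = 0.00472). Of its other bright probe sets, 1 fell by 0.40 and another differed by -0.17 without passing. The ubiquitous subunits were otherwise close to 0. Cox4i1 differed by -0.18 (95% interval -0.39 to 0.03), Cox6a1 by 0.01 (-0.19 to 0.21), Cox6b1 by -0.24 (-0.45 to -0.03, adjusted p = 0.0798), Cox7a2 by -0.13 (-0.36 to 0.10) and Cox8a by 0.09 (-0.09 to 0.28). Cox6b1 passed without tumour 2 (-0.29). The 4 livers read 14.28, 14.24, 14.25 and 14.25 for Cox6a1, and the tumours 14.22, 14.27, 14.24, 14.50 and 14.10, tumour 4 being the highest. Cox7a2l, which links complexes III and IV into supercomplexes, was 12.04, 11.66, 12, 11.71 and 12.06 against 11.53, 11.46, 11.69 and 11.85 (0.26, adjusted p = 0.124), from an x_at probe set.

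Several complex IV subunits have isoforms typical of other tissues, and among these Cox7a1 was the member that rose. Cox7a1, the form of heart, skeletal muscle and brown fat, read 6.99, 7.71, 7.87, 6.65 and 6.91 in tumours and 6.14, 6.22, 6.30 and 6.51 in livers, 1.90-fold higher (0.93, SE 0.25, adjusted p = 0.0195). All tumours lay above all livers, and tumours 2 and 3 were the highest. The call was lost without liver 1 (0.88), and centring on housekeeping genes turned the value to -0.48. Of the 6 measured markers of striated muscle none was called; their mean was 5.28 to 5.37 across tumours and 5.31 to 5.49 across livers, and Myh4 lay at or below the background control on every array. The 5 measured adipocyte markers had a mean of 5.17 to 5.26 and 5.33 to 5.49, none called. Fibroblast and stellate markers (6 measured, 2 lower and 2 higher) had a mean of 8.34 to 9.96 in tumours, highest in tumour 3, and 8.44 to 9.07 in livers; their part in the result was not tested.

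Of the other tissue isoforms only Cox8c passed with the probe sets used. Cox6a2 of striated muscle differed by -0.06 (95% interval -0.27 to 0.15), Cox8b of muscle by -0.23 (-0.51 to 0.05) and Cox4i2, an isoform of lung, by -0.19 (-0.37 to -0.02, adjusted p = 0.0857). Cox8c, a testis form, fell from 9.03, 9.0, 9.06 and 8.81 to 8.80, 8.73, 8.60, 8.78 and 8.56 (-0.28, SE 0.09, adjusted p = 0.034). Its gap between groups was barely open, and the call was lost without tumour 3 (-0.26), tumour 5 (-0.25), liver 1 (-0.26), liver 2 (-0.27) or liver 3 (-0.25). Cox7b2 lay at background, with means of 3.87 in tumours and 4.28 in livers, so its difference of -0.41 (adjusted p = 0.0508) has no measurable size; it passed without tumour 4 (-0.46), liver 1 (-0.48) or liver 2 (-0.48). Cox6b2, another testis form, fell into separate levels that did not follow the groups. It read 8.75 in tumour 2, 8.80 in tumour 3 and 8.86 in liver 1, but 6.29, 6.62 and 6.79 in tumours 1, 4 and 5 and 6.06, 6.06 and 6.22 in livers 2 to 4 (difference 0.65, SE 0.76). Cox7c and Ndufb4 were read here by dim probe sets, at 5.78 to 7.06 and 4.70 to 5.12 in the tumours, and neither was called.

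Single arrays stood on different sides for different members. Among tumours, tumour 4 was the highest for 30 of 73 members (41.1%, against 22.5% of all genes; at a mean level of at least 10, 45.5% against 26.1%) and the lowest for 12. Against the mean of the other tumours it was higher by 0.94 for Ndufs1, 0.90 for Cox5b, 0.84 for Ndufb3, 0.77 for Ndufs7, 0.68 for Sdhc and 0.68 for Ndufa10. For Ndufa3 and Uqcrc2 the same measure was -0.40 and -0.31, so subunits of the same complex stood on opposite sides. Without tumour 4, 25 members were called lower, and Ndufb3 (-0.44 with it, adjusted p = 0.0984) and Ndufs1 (-0.31, adjusted p = 0.288) were among those gained. Tumour 2 was the highest for 24 members (32.9%, against 22.9% of genes) and tumour 3 the lowest for 26 (35.6%, against 21.0%). Among livers, liver 4 was the highest for 47 members (64.4%, against 32.1% of all genes; at a mean level of at least 10, 72.7% against 39.5%), and without it 17 members were called lower. Liver 4 also had the lowest liver means of endothelial markers (8.59, with 9.20 to 9.24 in the others) and macrophage markers (9.79, with 10.7 in the others), and the part of these in the result was not tested. The SD was larger among tumours than among livers for 61 members (83.6%, against 58.0% of all genes), with medians of 0.198 and 0.110. At a mean level of at least 10 it was larger for 92.7% of the members and 79.3% of all genes.

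**Figure D3:**
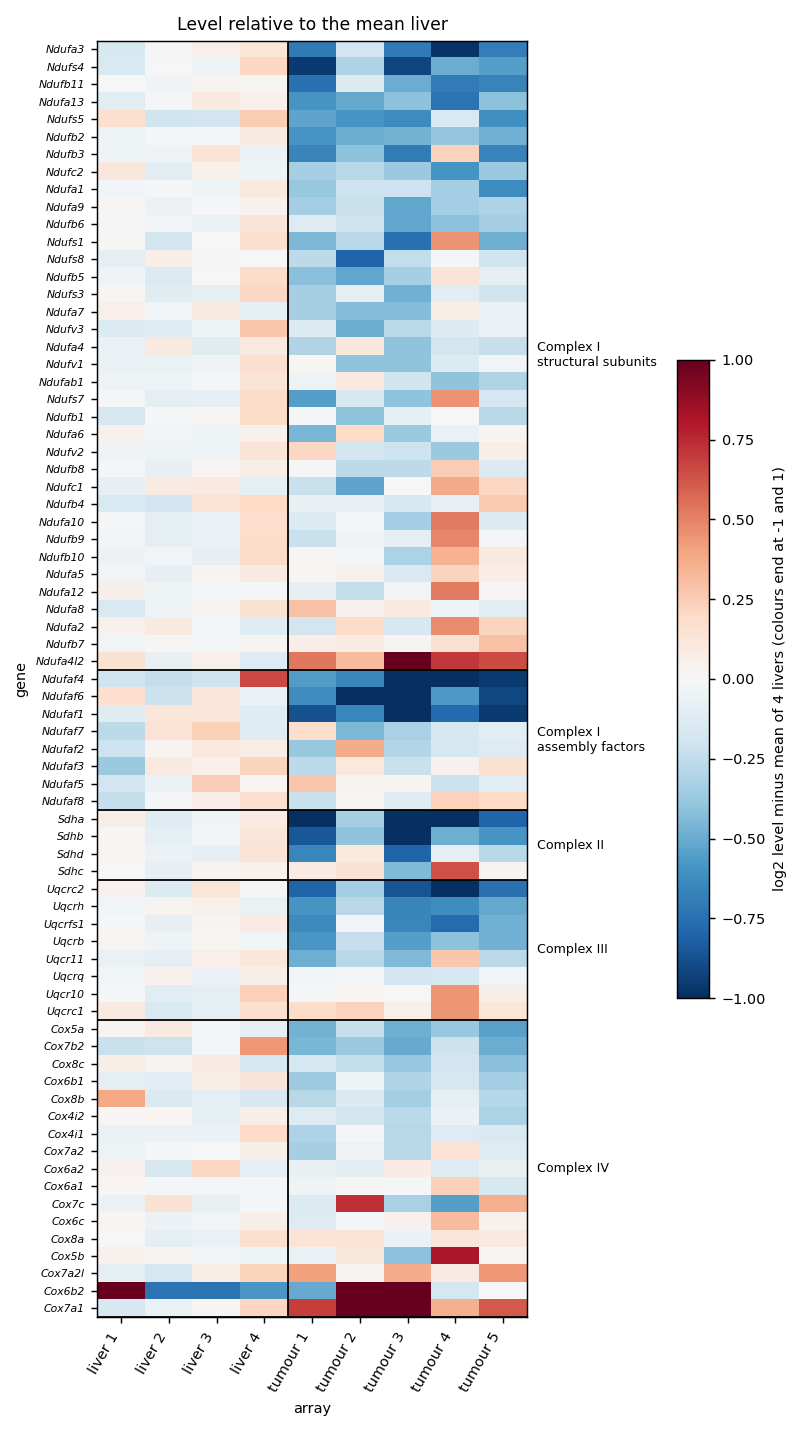
Log2 level of each of the 73 members on each array relative to the mean of the 4 livers; rows are genes grouped by complex and ordered by difference, columns are arrays, and colours end at -1 and 1. Blue runs across all tumours in the upper rows of complexes I, II and III, while the column of tumour 4 alternates between red and blue within complexes I and III.

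Some lists of cell type markers held calls too, and others held none. Over all genes 17.4% were called lower and 16.1% higher. Of 6 measured endothelial markers 3 fell, with means of 7.06 to 8.45 in tumours and 8.59 to 9.24 in livers. Of 6 measured macrophage markers 3 fell, at 7.80 to 10 and 9.79 to 10.7. Of 5 bile duct markers 2 rose and 1 fell, at 7.08 to 7.69 and 6.11 to 6.38. The 5 measured lymphocyte markers (6.44 to 7.41 and 6.63 to 7.36) and 3 erythroid markers (5.87 to 6.40 and 6.03 to 7.27) held no call. No marker of these lists was at or below the background control on every array, and their part in the differences was not tested.

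Other genes of the same machinery were compared as lists that had been written down with earlier results of these data known. Without centring, 17.4% of all genes were called lower and 16.1% higher. After housekeeping centring at most 1 gene of any list was higher. ND5, a complex I subunit encoded by mitochondrial DNA and the only such gene measured with a single-gene probe set, fell from 14.67, 14.53, 14.61 and 14.61 in livers to 14.17, 14.00, 14.07, 14.24 and 14.19 in tumours (-0.47, SE 0.07, adjusted p = 0.00143). Of 28 other genes of complexes III and IV, most of them assembly factors, 11 fell and 3 rose, with a median of -0.09; 1 was higher without liver 1 or with 75th-percentile centring. Surf1, an assembly factor of complex IV, fell by 1.13 (SE 0.08), Uqcc3, an assembly factor of complex III, by 1.03 (SE 0.14) and Coa6, which serves copper delivery, by 0.94 (SE 0.15). Coa3 rose by 0.66 (SE 0.10), and was below 0 (-0.75) after housekeeping centring. Of 14 further assembly factors of complexes I and II, 7 fell and 1 rose, with a median of -0.51. Dmac2 fell by 0.98 (SE 0.18), Tmem126b by 0.97 (SE 0.25) and Aifm1 by 0.78 (SE 0.16). Tmem186 rose by 0.61 (SE 0.20), a call lost without tumour 1 (0.61), tumour 4 (0.46), tumour 5 (0.62), liver 1 (0.57), liver 2 (0.60) or liver 3 (0.52). That call was also lost with 75th-percentile centring (0.46) and with Xist as a covariate (0.604).

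Upstream of the chain, 10 of 20 citrate cycle and pyruvate dehydrogenase genes fell and 1 rose, with a median of -0.47. Dlat, of the pyruvate dehydrogenase complex, fell by 1.23 (SE 0.23) and Sucla2, of succinyl-CoA synthetase, by 0.84 (SE 0.11). Aco1, which fell by 1.18 (SE 0.20), encodes the cytosolic aconitase rather than the mitochondrial one. Idh2 rose by 0.53 (SE 0.16), a call lost without tumour 1 (0.47), tumour 3 (0.51), tumour 5 (0.51), liver 2 (0.47) or liver 4 (0.43), and with the mean of its probe sets (0.20). That call was also lost with 75th-percentile centring (0.387). Of 19 genes that feed electrons into or make ubiquinone, 6 fell and 2 rose, with a median of -0.40, and 11 were lower with 75th-percentile centring. Etfdh and Etfb, which pass electrons from fatty acid oxidation to ubiquinone, fell by 1.05 (SE 0.18) and 0.80 (SE 0.15), and Coq10b by 1.34 (SE 0.28), while Coq6, a ubiquinone-making enzyme, rose by 0.90 (SE 0.14). Of 19 ATP synthase genes 3 fell and 3 rose, with a median of -0.0061. That is 15.8% each way, near the 17.4% lower and 16.1% higher of all genes. With 75th-percentile centring 5 were lower and 2 higher, and without tumour 1 or liver 4 the lower count was 1. Atp5md fell by 0.48 (SE 0.08), Atp5l by 0.30 (SE 0.08) and Atp5g1 by 0.27 (SE 0.08), whereas Atpif1, the inhibitor of the enzyme, rose by 1.54 (SE 0.22). The call of Atp5l was lost without tumour 1 (-0.29) or liver 4 (-0.27), and that of Atp5g1 without tumour 1 (-0.27), tumour 3 (-0.22), tumour 5 (-0.27), liver 2 (-0.25), liver 3 (-0.26) or liver 4 (-0.27).

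Genes for making and importing mitochondrial proteins had calls in both directions. Of 76 mitochondrial ribosome genes 10 fell and 10 rose (median -0.05). That is 13.2% each way, below the 17.4% lower and 16.1% higher of all genes. Mrpl36 fell by 0.76 (SE 0.19), Mrpl41 by 0.64 (SE 0.10) and Mrpl1 by 0.62 (SE 0.10), and Mrpl13 rose by 0.64 (SE 0.16). The counts of the ribosome genes were not stable: with 75th-percentile centring 26 were lower and 5 higher. The lower count was 5 without liver 4 and 6 without tumour 1, tumour 5 or liver 3, and the higher count was 17 without tumour 2, 5 without tumour 1 or liver 1 and 6 without tumour 5 or liver 2. Of 23 import and chaperone genes 2 fell (8.7%) and 5 rose (21.7%), with a median of 0.03. Their lower count was 5 with 75th-percentile centring and 1 without liver 3. Tomm40l rose by 1.6 (SE 0.22), Timm50 by 1.33 (SE 0.13) and Tomm22 by 0.74 (SE 0.12), and Tomm70a fell by 0.61 (SE 0.13). The mean over probe sets did not pass for Mrpl1 (-0.17) or Tomm70a (-0.27), and without x_at and s_at probe sets Tomm70a was at -0.12 (adjusted p = 0.646). Of 20 glycolysis and hypoxia genes 5 rose and 2 fell (median 0.13); the lower count was 1 without tumour 1, tumour 4 or any 1 of the 4 livers, and with Xist as a covariate. Pfkp, a phosphofructokinase, rose by 2.95 (SE 0.32), Pkm by 1.97 (SE 0.50) and Pfkl, the liver phosphofructokinase, by 1.61 (SE 0.17), and Pdk1, which inhibits pyruvate dehydrogenase, fell by 3.85 (SE 0.55).

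Of 21 regulators of mitochondrial genes, 6 rose (28.6%, against 16.1% of all genes) and 3 fell (14.3%, against 17.4%), with a median of 0.06. Nrf1, the factor whose letters were searched in the promoters, rose: it read 7.48, 7.33, 7.51, 7.50 and 7.52 in tumours and 6.84, 7.11, 6.73 and 6.84 in livers (0.59, SE 0.09, adjusted p = 0.00132). Tfam, which packages and transcribes mitochondrial DNA, rose by 0.52 (SE 0.14), from 10.13 to 10.40 in livers to 10.55 to 11.21 in tumours. Its call was lost without liver 2 (0.51), liver 3 (0.52) or liver 4 (0.49). The same held with 75th-percentile centring (0.375) and with the mean of its probe sets (0.419). Yy1 rose by 0.82 (SE 0.10), Gabpb1, a subunit of the GABP factor, by 0.67 (SE 0.16), Myc by 0.87 (SE 0.17) and Tfb1m by 0.72 (SE 0.20), the last with its call lost without liver 1 (0.67), liver 3 (0.69) or liver 4 (0.67). Tfb2m, a transcription factor of mitochondrial DNA, fell by 1.01 (SE 0.17), Mterf3 by 0.96 (SE 0.19) and Twnk, the mitochondrial helicase, by 0.53 (SE 0.11). Ppargc1a, the coactivator PGC-1alpha, was 7.80, 8.39, 7.53, 8.29 and 7.93 in tumours and 8.50, 7.91, 8.10 and 7.43 in the livers, a difference of 0.0017 (95% interval -0.54 to 0.54). After housekeeping centring the differences of all 6 regulators that rose were below 0.

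**Figure D4:**
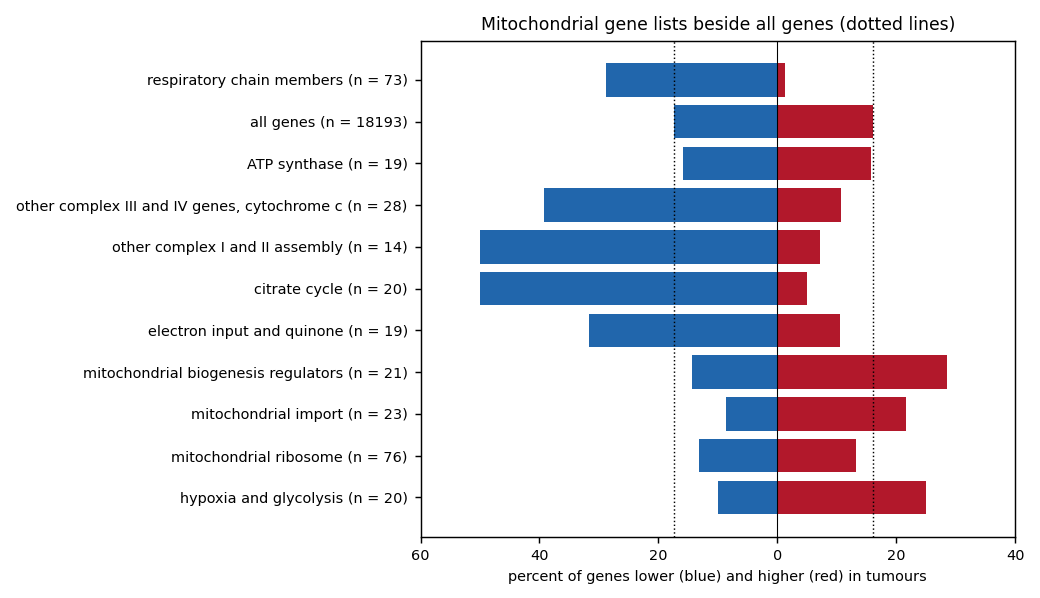
Percent of the genes of each list called lower (blue, to the left) and higher (red, to the right) in tumours with limma at an adjusted p of 0.05, with the number of genes in brackets; dotted lines mark the shares over all 18193 genes, 17.4% and 16.1%. Respiratory chain members, assembly factors, citrate cycle genes and the electron input and quinone list extend past the left line. Regulators, import genes and the glycolysis and hypoxia list extend past the right line. After housekeeping centring 2.09% of all genes were higher. So was 1 gene of the glycolysis and hypoxia list, but none of the regulators or import genes.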

How the data were processed

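Per the labels' protocols, Trizol was used to extract RNA from the 9 samples, a RiboAmp kit to amplify it, and Affymetrix mouse genome arrays to measure it. The authors deposited log2 values, 1 per probe set; per the submitters' processing notes these came from RMA, and no source used here gives its version or settings. Amplification can shorten transcripts and RMA can compress dim differences. Precision is limited by having 9 arrays.

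Of 45101 probe sets, 34945 named 1 gene, 932 several, 9160 none and 64 were controls; 10 probe sets naming a member beside other genes were not used. Each gene was read by its brightest probe set (mean of 9 arrays). All 73 member symbols matched RefSeq (GRCm38.p6) by gene identifier. Another probe set existed for 41 members and differed in call for 13.

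Groups followed the titles and were compared over 18193 genes with limma 3.58.1 (lmFit, eBayes, two-sided; R 4.3.3), Benjamini-Hochberg adjusted, threshold 0.05; every adjusted p refers to this test. On simulated data for these genes it recovered 29.9% of planted differences of 0.5, 68.7% of 1 and 92.4% of 2, with 7 other calls. Only 67, 67 and 66 genes were changed there, whereas 6091 genes were called in the data. The adjustment was therefore stricter in the simulation, and its shares do not measure the recovery here. Python 3.11.15, pandas 2.3.3 and matplotlib 3.10.9 did the rest. The members and lists were chosen with earlier results of these data known. Named genes followed a rule: complex II, isoform pairs, X-linked members, the members of highest and lowest mean level (Uqcrb, Cox7b2), up to 5 lower and 3 higher members per class by adjusted p, up to 3 genes per list in the prevailing direction and 1 in the other, and all called regulators with Ppargc1a. The other called members, Ndufaf and Uqcr genes, and Ndufb3, Ndufs1, Ndufs7, Ndufa10, Cox5b, Cox7c and Ndufb4 were chosen after their values were seen. Alternatives were the probe set choice, 2 scalings, a filter at the TrpnX control, eBayes with trend, each array left out, a replicate block, Xist as a covariate and, added after seeing the data, tumour 4 and liver 4 left out together and each probe set on its own.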

Additional observations from a re-analysis of the deposited data

Results flagged for a closer look

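In the 146 groups formed by the 73 members in 5 tumours and 4 livers, 13 held an array far from the others of its group; chance flags about 1 in 20 groups. Of these, 4 concerned liver 4, which read 10.91 for Ndufaf4 (other livers 10.01 to 10.05), 14.02 for Cox4i1 (13.75 to 13.76), 12.90 for Ndufv1 (12.66 to 12.69) and 12.90 for Ndufv2 (12.72 to 12.73), each time the highest. Without liver 4 the difference of Ndufaf4 was -0.71 and still passed.

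Tumour 3 stood out for Ndufa4l2 at 10.12 (other tumours 7.56 to 7.95), for Cox6a2 at 7.63 (7.42 to 7.48) and, as the lowest, for Cox8a at 12.15 (12.31 to 12.35). Tumour 4 stood out for Uqcr10 at 12.96 (12.51 to 12.58) and for Ndufs5 at 11.54 (11.06 to 11.16). Tumour 5 read 5.12 for Ndufb4 (4.70 to 4.78), a dim probe set.

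Liver 1 read 8.86 for Cox6b2 (other livers 6.06 to 6.22), the level that tumours 2 and 3 also had, and 6.54 for Cox8b (5.99 to 6.06). Liver 3 read 11.83 for Ndufb3 (11.63 to 11.65).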

How the results depend on the processing

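All 21 decreases kept their sign under every alternative run on 1 value per gene; with each probe set on its own, a dimmer probe set of Ndufs4 had the opposite sign (0.52, not called). The number of decreases lay between 17 and 25 with 1 array left out, with 0 to 2 increases. By class, leaving out 1 array gave 7 to 12 calls among structural subunits of complex I, 3 to 3 among its assembly factors, 2 to 2 in complex II, 3 to 5 in complex III, 2 to 4 in complex IV and 4632 to 6361 among all genes. Without tumour 3 there were 2 increases (Ndufa4l2 joined Cox7a1), and without liver 1 there were 0. With the probe set of largest variance there were 2 increases and 5 calls in complex IV. Differences under 0.5 log2 units on dim or very bright probe sets are at the limit of what 9 arrays can show.

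Centring on 75th percentiles gave 38 decreases, 20 calls among complex I structural subunits, 8 in complex IV and 9378 among all genes. Changes of sign, here and below, are listed only for genes chosen by the naming rule. This centring turned Sdhc (-0.053), Ndufb7 (-0.024), Ndufa2 (-0.042), Ndufaf8 (-0.13), Ndufaf5 (-0.14), Uqcr10 (-0.049), Cox8a (-0.055), Cox6a1 (-0.14) and Ppargc1a (-0.15) below 0. Centring on 11 housekeeping genes gave 70 decreases and 0 increases, with 35, 8, 4, 8 and 15 calls in the 5 classes and 16780 among all genes, 380 of them higher. That level was itself 12.42 to 13.17 in tumours and 11.08 to 11.70 in livers, because 7 of the 11 genes rose (median 0.62), and it moved the median of all genes to -1.49. It turned Sdhc (-1.32), Cox7a1 (-0.48), Ndufa4l2 (-0.40), Ndufb7 (-1.29), Ndufa2 (-1.31), Ndufaf8 (-1.39), Ndufaf5 (-1.41), Uqcrc1 (-1.21), Uqcr10 (-1.31), Cox7a2l (-1.15), Cox8a (-1.32), Cox6a1 (-1.40) and Cox6b2 (-0.76). Among other genes it turned Coa3 (-0.75), Tmem186 (-0.80), Idh2 (-0.88), Coq6 (-0.51), Myc (-0.54), Yy1 (-0.59), Tfb1m (-0.69), Ppargc1a (-1.41), Nrf1 (-0.82), Gabpb1 (-0.74), Tfam (-0.89), Timm50 (-0.086), Tomm22 (-0.67) and Mrpl13 (-0.77).

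The mean of probe sets turned Ndufaf8 (-0.020), Uqcr10 (-0.62), Atp5g1 (0.0069) and Ppargc1a (-0.082), and the probe set of largest variance Uqcr10 (-1.18) and Atp5g1 (0.28). Leaving out 1 array turned values near 0: without tumour 1 Ndufaf5 (-0.064), without tumour 2 Ndufaf5 (-0.0055) and Ppargc1a (-0.10), without tumour 3 Ndufaf5 (-0.0021), without tumour 4 Sdhc (-0.042), Ndufaf8 (-0.034), Cox6a1 (-0.049) and Ppargc1a (-0.073), and without tumour 5 Ndufaf8 (-0.026). Without liver 1 these were Ndufaf8 (-0.061) and Ndufaf5 (-0.060), without liver 2 Ndufaf5 (-0.019) and Ppargc1a (-0.024), without liver 3 Cox6a2 (0.0082) and without liver 4 Ppargc1a (-0.18). Over these 9 removals Sdhc ranged from -0.042 to 0.227, Ndufaf8 from -0.061 to 0.078, Ndufaf5 from -0.064 to 0.085, Cox6a1 from -0.049 to 0.052, Cox6a2 from -0.113 to 0.0082 and Ppargc1a from -0.182 to 0.173. Without tumour 4 and liver 4 together Sdhc (-0.027), Ndufa2 (-0.025), Cox6a1 (-0.051) and Ppargc1a (-0.26) turned, and with Xist as a covariate Ndufaf5 (-0.015). The cause was not tested.

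The titles number tumours 1 to 5 and livers 1 to 4, and the labels do not state whether the numbers pair the samples. Deviations of same-numbered arrays correlated at -0.129, -0.067, 0.180 and -0.121, and 1 of 4 tumours and 1 of 4 livers correlated best with its own number. So few arrays cannot settle whether the numbers pair the samples. With the replicate number as a block, which leaves tumour 5 without a partner, 11 decreases and 0 increases remained, with 4 calls among complex I structural subunits, 2 in complex III, 1 in complex IV and 3552 among all genes, and Ndufaf8 turned to -0.026.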
